A study of Mus musculus with 12 samples.

Results

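Nascent RNA of 140 liver loci reached its highest signal around lights on, and these loci are described here. They were chosen by their measured values: over the 12 libraries, a locus had to exceed 6 reads per base pair (rpbp) in at least 1 library, its highest value had to exceed its lowest by more than 75%, a 24-hr cosine and sine had to account for more than 0.6 of its variance (R squared), and the fitted peak had to lie between 21 and 3 hr. Of the 6284 gene symbols that exceeded 6 rpbp, 156 symbols met these limits, which is 2.48%, and merging the overlapping ones left 140 loci. Of the core clock genes Arntl, Clock, Npas2 and Rora, left out by the choice, 3 would have met the limits, and 2 more symbols were dropped because they overlap one of these genes. The same limits applied to the other windows gave 111 loci with a peak between 3 and 9 hr (mid light). Between 9 and 15 hr (around lights off) there were 74, and between 15 and 21 hr (mid dark) 27. The lights-on loci were 39.8% of these 352, an approximate share because symbols were merged within each window only. Mical2 and Zfp295, of mid dark, overlap lights-on loci and count again. The row of Capn8, with a peak of 14.7 hr, spans much of chromosome 1 and merges any lights-off symbols within it.

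The study followed transcription in the liver of wild-type C57BL/6 mice, males of 3 to 6 months kept in 12 hr of light and 12 hr of darkness. Livers were taken at 6 zeitgeber times (ZT0, ZT4, ZT8, ZT12, ZT16 and ZT20, with ZT0 at lights on and ZT12 at lights off), once in each of 2 independent series, so every time point has 2 replicates and the labels of the 12 libraries differ in time and replicate alone. Nascent-Seq sequences RNA that is still attached to chromatin in purified nuclei, and each value is the signal over the exons of a symbol, scaled by the authors to 40000000 reads and counted without regard to strand. The number of animals behind a library is not given in the sources used here, so the spread between replicates is the spread between the series.

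Mice are active and feed mostly in the dark, and the liver moves through the day between storing nutrients and releasing them. Around lights on, feeding ends and the fast of the light phase begins. Many liver genes also follow the circadian clock, in which CLOCK and BMAL1 (the product of Arntl) activate their targets through E-box sequences. REV-ERB and ROR receptors act on RORE sequences of genes such as Arntl itself. In nascent RNA, a change reflects transcription more directly than in mature mRNA, whose level also depends on its decay.

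The liver origin of the libraries was plain in the hepatocyte markers. The summed signal of Alb, Apoa1, Ttr, Cps1, Serpina1a and Tat ranged from 631 to 1864 rpbp, against 19.8 to 58.8 rpbp for 7 Kupffer cell markers, 13.6 to 26.8 for 6 markers of sinusoidal endothelial cells, 9.8 to 14.2 for 6 of stellate cells, 8.5 to 14.6 for 2 erythroid genes, 0.7 to 5 for 6 of lymphocytes and 1 to 2.5 for 4 of cholangiocytes. None of the markers was listed at 0 in all libraries and none was among the chosen symbols. The time-point mean of the Kupffer cell sum was lowest at ZT20, at 30.2 rpbp, and highest at ZT12, at 51.1 rpbp, and its part in the results was not tested. In these bulk samples fewer cells of a type and less RNA per cell cannot be told apart. Library totals ranged from 118342 rpbp at ZT0 replicate 1 to 160545 rpbp at ZT20 replicate 1. The signal followed exon GC content differently between libraries, with Spearman correlations across symbols from -0.65 at ZT8 replicate 2 and -0.508 at ZT20 replicate 2 to 0.447 at ZT16 replicate 1. Both libraries of ZT8 and of ZT20 were sequenced in 2 lanes and the other 8 in 1 lane, so that an effect of lanes cannot be told apart from a difference between these times and the others. A fit with lanes as a block gave 206 loci, the 140 among them. With this layout of lanes the block could only raise R squared, so it could not remove a locus.

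The loci as a group had a broad maximum from ZT20 to ZT4 and a trough from ZT8 to ZT16. Of the 140 loci, 77 had their highest time-point mean at ZT0, 37 at ZT20 and 26 at ZT4, and 62 had their lowest mean at ZT12, 45 at ZT8 and 33 at ZT16. Fitted peaks were spread through the window, with 45 loci between 21 and 23 hr, 54 between 23 and 1 hr and 41 between 1 and 3 hr, and a median of 23.7 hr. The ratio of the highest to the lowest time-point mean, with 1 rpbp added to both, ran from 1.38 to 11.1 with a median of 2.18. It was over 2 for 80 loci and over 4 for 18. R squared ran from 0.601 to 0.903 (median 0.697) and the mean signal from 2.57 to 77.4 rpbp (median 8.05). In all 140 loci both libraries of the highest time point lay above both of the lowest, which also held for 90.6% of all tested symbols. The count depended on single libraries. Without ZT8 replicate 2, 219 loci met the limits, 127 of the 140 among them, and without ZT0 replicate 1 208 did, 118 of the 140 among them, while leaving out any other library gave 119 to 159. Without both ZT8 replicate 2 and ZT20 replicate 2, the libraries whose signal fell most with GC content, the count was 252, with 128 of the 140 among them. All these values are among those that chose the loci and are given as a description.

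**Figure D1:**
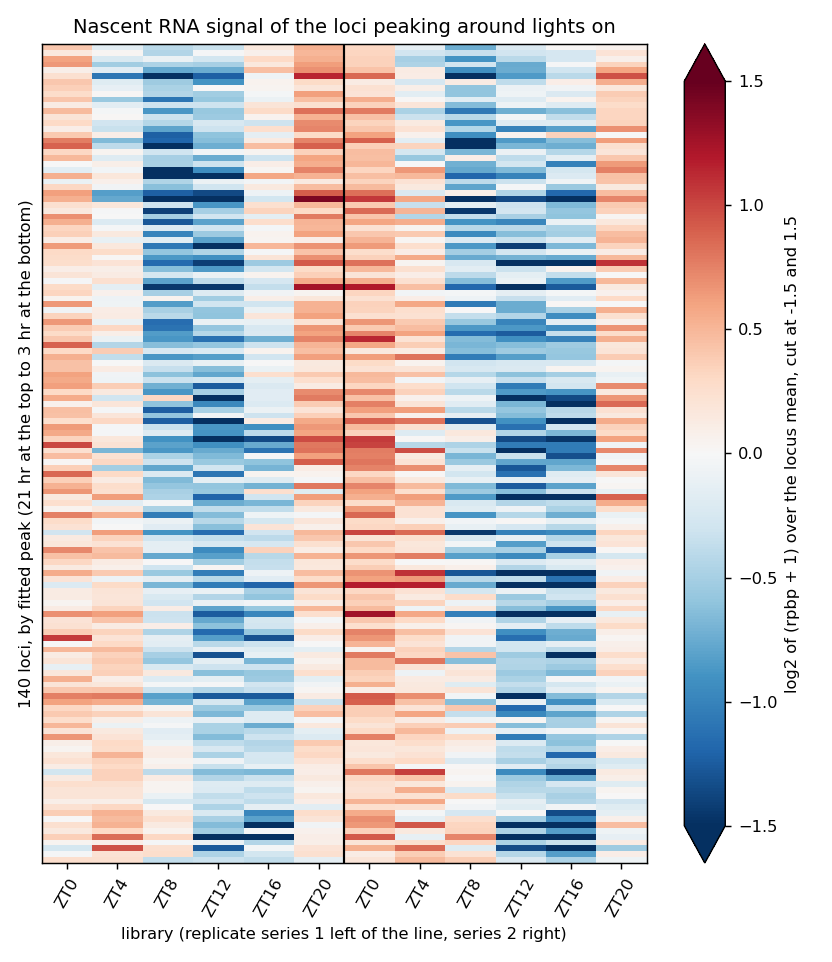
Nascent RNA signal of the 140 loci (rows, ordered by fitted peak from 21 hr at the top to 3 hr at the bottom) in the 12 libraries (columns, replicate series 1 left of the line and series 2 right), as log2 of rpbp plus 1 over the locus mean. Red marks a value above the mean and blue one below it, and the red part of each series lies at ZT20, ZT0 and ZT4.

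Both series showed this shape, with an offset between them. Scaled to its own mean over the libraries, the median locus stood at 1.25 and 1.38 at ZT0 (replicates 1 and 2), at 1.12 and 1.19 at ZT4, at 0.731 and 0.811 at ZT8, at 0.654 and 0.687 at ZT12, at 0.85 and 0.68 at ZT16 and at 1.27 and 1.13 at ZT20. Over all 6284 tested symbols the same median stayed between 0.829 at ZT16 replicate 2 and 1.08 at ZT0 replicate 2. In series 1 more loci had their highest of all 12 values at ZT20, 33, than at ZT0, 20, whereas in series 2 it was 14 at ZT20 and 45 at ZT0. Fitted to each series alone, the median peak was 23 hr in series 1 and 0.44 hr in series 2. The peaks of a locus in the 2 series differed by a median of 1.36 hr, and by at most 4 hr in all 140 loci, which the limit on R squared over the pooled values favors.

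**Figure D2:**
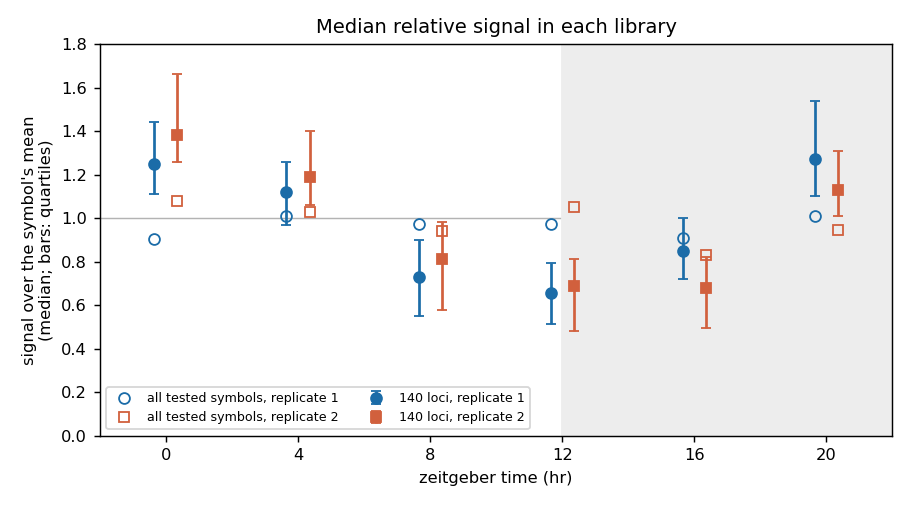
Signal relative to a symbol's own mean (no unit) by zeitgeber time, as the median over the 140 loci with quartiles as bars (filled) and over all tested symbols (open), for replicate 1 (circles) and replicate 2 (squares), with the dark phase shaded. The median of the loci was 1.25 and 1.38 at ZT0 and 0.654 and 0.687 at ZT12.

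Because both series chose the loci, the rhythm was tested in loci chosen from 1 series alone. The same limits applied to the 6 values of replicate 1 gave 219 loci with a peak around lights on, and the 6 values of replicate 2 were then compared with a 24-hr cosine at the peak fitted to replicate 1, by an exact one-sided permutation test over all 720 orders of the values. The p-value was under 0.05 for 72 of the 219 loci, or 32.9% (95% Wilson interval 27 to 39.3%), against 11.8% of all tested symbols. The correlation was above 0 in 189 of the 219 loci, with a median of 0.637 against 0.317 over all tested symbols, and the peak fitted to replicate 2 lay in the same window for 139 loci (63.5%), against 27.4% of all tested symbols. With the series exchanged, 79 of 286 loci had a p-value under 0.05 in replicate 1, or 27.6% (22.8 to 33.1%), against 16.1% of all tested symbols. There the correlation was above 0 in 255 loci, with a median of 0.569, and 158 loci (55.2%) kept the window, against 25.6%. The loci are not independent of each other, since they share libraries, so these intervals cover counting error only.

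Loci of the other windows, chosen and tested in the same way, gave shares from 11.6 to 46.2%. Of those chosen in replicate 1, 31.2% of 234 mid-light loci, 23.4% of 274 loci peaking around lights off and 11.6% of 215 mid-dark loci had a p-value under 0.05 in replicate 2. With replicate 2 choosing, the shares were 27.8% of 252, 46.2% of 145 and 28.3% of 46. No single symbol passed after Benjamini-Hochberg adjustment over the 6284 symbols, where the lowest adjusted p of the exact permutation test was 0.312 in replicate 2 and 0.184 in replicate 1. The smallest p-value that 720 orders can give is 0.00139, while 744 and 1013 symbols had an unadjusted p under 0.05. Leaving out 1 time point in both series lowered the shares. Without ZT12, the loci chosen in replicate 2 reached 7.97% against 7.65% of all tested symbols, and without ZT8 they reached 16% against 12.3%. Loci chosen in replicate 1 reached 14.1% against 7.96% without ZT0, 18.2% against 8% without ZT12, 21.5% against 7.32% without ZT16 and 21.6% against 10.9% without ZT20. A test for a 24-hr rhythm in any phase gave 9.13% against 3.07% and, with the series exchanged, 9.44% against 5.03%. With libraries rescaled, the loci chosen in replicate 2 reached 42.2% against 17.6%, and after removal of the GC trend 41.5% against 18.8%. With 5 time points, and therefore fewer orders, the test also has fewer possible p-values.

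**Figure D3:**
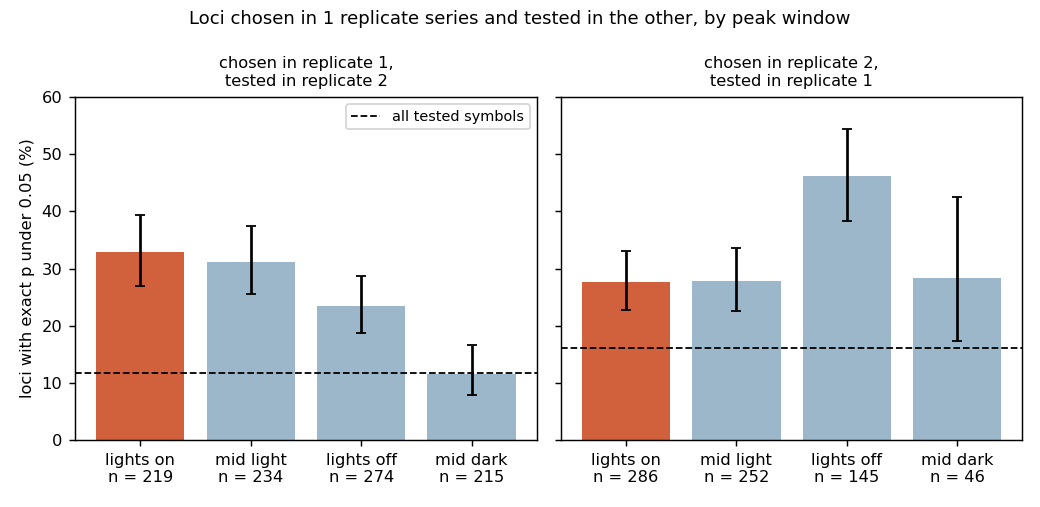
Percent of loci with an exact one-sided permutation p under 0.05 in the series that did not choose them (bars, with 95% Wilson intervals), for loci chosen in replicate 1 (left) and in replicate 2 (right), by the window of the fitted peak. The dashed line is the share of all tested symbols, 11.8% on the left and 16.1% on the right, and the lights-on bars stand at 32.9% and 27.6%.

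The roles of the 140 loci were assigned by hand once they were known, and 59 of the loci met every limit in each series alone. By role there were 22 loci of cell junctions, cytoskeleton and small GTPase signalling, 15 of lipid, sterol, retinoid and peroxisome metabolism, 11 secreted, matrix or immune, 11 of signalling and the cell surface, 10 of transcription and coregulation, 9 each of vesicle traffic, of metal and solute transport and of ubiquitin and proteases, 7 each of detoxification and bile, of cofactors, nucleotides and sugars and of translation and RNA, 6 of glucose and glycogen, and 17 clone-named or uncharacterised. The 59 loci included 11 of junctions and cytoskeleton, 9 of lipid metabolism and 4 of detoxification, and 1 of transcription and coregulation. The roles differ in breadth and were not assigned to the other tested symbols, so their counts show no concentration of a role in the set. Gene lists are described beside the roles by the share of their tested members that was chosen, which stands against the 2.48% of all tested symbols and was not tested.

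**Figure D4:**
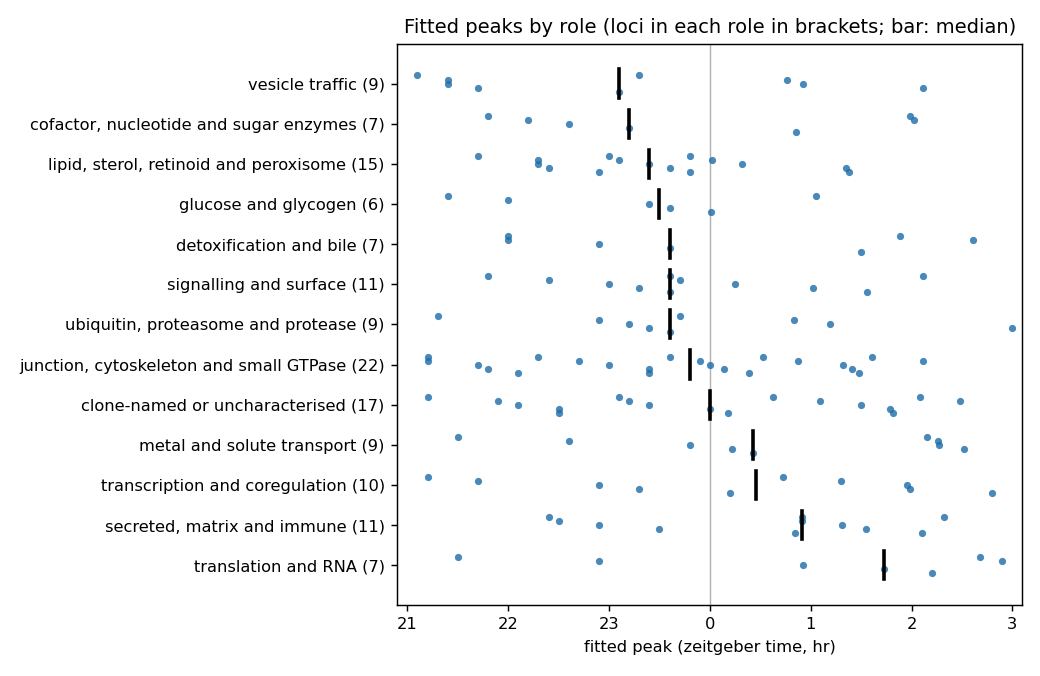
Fitted peak (zeitgeber time in hr) of each locus (points, spread vertically for visibility) by role, with the median of the role as a bar and the number of loci in brackets. Median peaks ran from 23.1 hr for vesicle traffic to 1.73 hr for translation and RNA, while the points of every role spread over most of the window.

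Of the 6 loci of glucose and glycogen handling, Gckr had the highest signal and Pdk4 the lowest. Gckr (mm9 chromosome 5, 31599954 to 31629675, plus strand), which encodes the regulatory protein that holds glucokinase inactive in the hepatocyte nucleus, gave, in replicates 1 and 2, 92.4 and 120.6 rpbp at ZT0, 90.3 and 97.9 at ZT4, 51.4 and 82.5 at ZT8, 31.4 and 37.4 at ZT12, 47.9 and 42.7 at ZT16 and 87.4 and 76.3 at ZT20. It was lowest at ZT12, at 34.4 ± 4.24 rpbp (SD, n = 2), and highest at ZT0, at 106 ± 19.9 rpbp, with no overlap between these time points and an R squared of 0.878. Ppp1r3c (mm9 chromosome 19, 36806221 to 36811094, minus strand) encodes the subunit that brings protein phosphatase to glycogen and so favors glycogen synthesis. It gave 30.7 and 40.6 rpbp at ZT0, 43.4 and 43.2 at ZT4, 19.8 and 14.9 at ZT8, 11.5 and 6.8 at ZT12, 22.2 and 3.5 at ZT16 and 43.2 and 51.9 at ZT20, a 4.78-fold range of time-point means with 1 rpbp added. Replicate 2 was much lower than replicate 1 at ZT16, while ZT20 was high in both. Pygl, the liver glycogen phosphorylase that breaks glycogen down, gave 44.5 and 43.4 rpbp at ZT0, 27.6 and 21 at ZT4, 22.1 and 33.8 at ZT8, 18.4 and 24 at ZT12, 25.3 and 28.5 at ZT16 and 48.3 and 42.1 at ZT20. Thus a gene for each direction of glycogen turnover was high at ZT20 and ZT0, and their fitted peaks were 0.015 hr and 22 hr.

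Pdk4, which encodes a kinase that blocks pyruvate dehydrogenase and spares glucose during fasting, was a low locus with a wide range. It gave 3.5 and 6.4 rpbp at ZT0, 3 and 2.6 at ZT4, 0.9 and 2.8 at ZT8, 0.1 and 0.4 at ZT12, 0.4 and 0.3 at ZT16 and 6 and 4.4 at ZT20. The signal at ZT12 and ZT16 was at or below 0.4 rpbp in all 4 libraries, and the locus left the set without ZT0 replicate 2, with a signal limit of 12 rpbp, with rescaled libraries or after removal of the GC trend. Galt, an enzyme of galactose use, had a peak of 23.4 hr and a 2.29-fold range, and Ldha, lactate dehydrogenase A, a peak of 21.4 hr and a 1.77-fold range. Of the 17 tested genes of a list of glucose use and glycogen genes, 3 were in the set (17.6%, against the 2.48% of all tested symbols), and 1 more cycled strongly with a peak around lights off. Of the 17 tested genes of gluconeogenesis and fasting, Pdk4 alone was in the set (5.88%, against the same 2.48%). There, 1 other cycled strongly, in mid light.

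**Figure D5:**
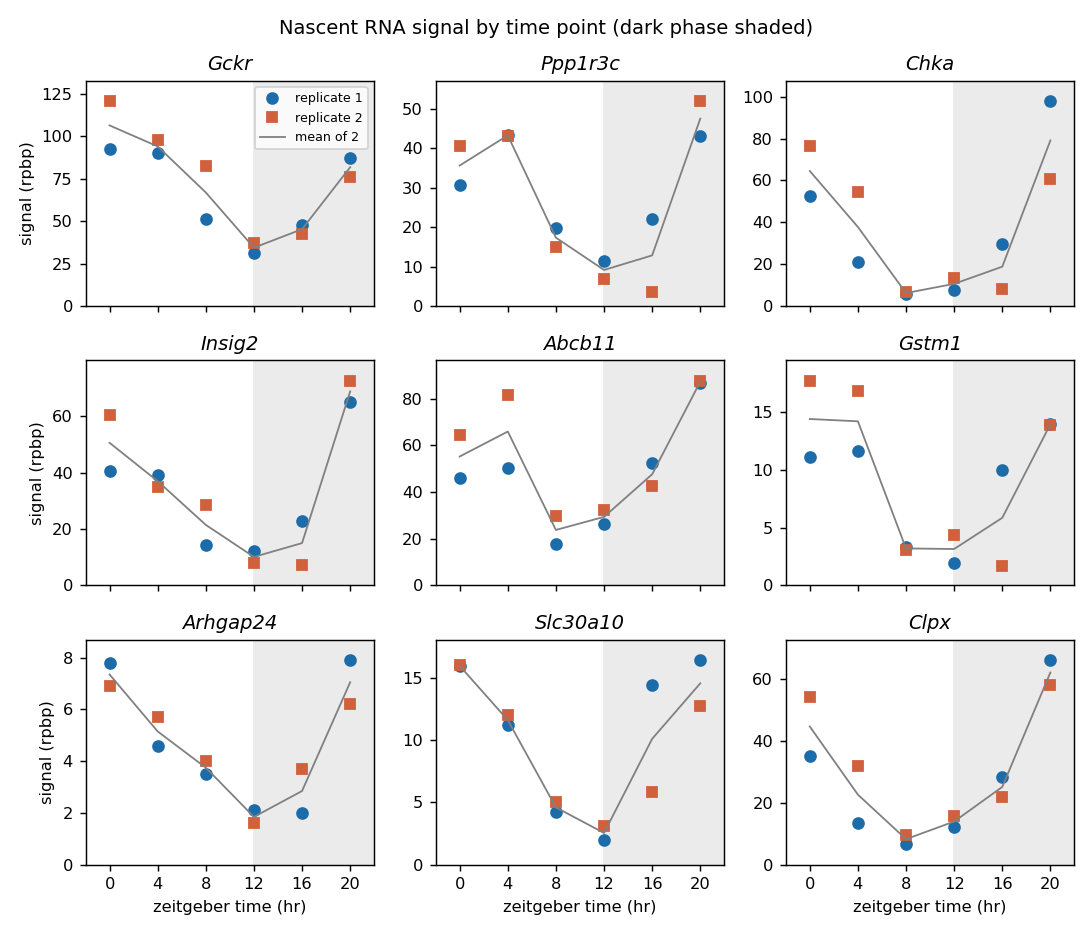
Nascent RNA signal (rpbp, linear axis from 0) by zeitgeber time (hr) for 9 loci, with replicate 1 as circles, replicate 2 as squares, their mean as a line and the dark phase shaded. In each of the 9 the libraries of ZT20 and ZT0 lie above those of ZT8 and ZT12, except for replicate 2 of Gckr at ZT8 (82.5 rpbp, against 76.3 rpbp in the same series at ZT20).

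The upstream sequences of Ldha, Ppp1r3c, Galt and the tight junction gene Tjp3 are shown because they hold the letters of a clock-related motif near the start of a gene whose signal peaked in the window. Each is given 5′ to 3′ on the strand of the gene, ends before the start site, and has the E-box, CRE or RORE letters in capitals. That of Ldha (chr7:46845619-46845803, plus strand) holds 2 E-boxes and a CRE, those of Ppp1r3c (chr19:36736663-36736748, minus strand) and Galt (chr4:41755435-41755516, plus strand) 1 E-box each, and that of Tjp3 (chr10:81291743-81291831, minus strand, 1 of its annotated starts) a RORE, all in build GRCm38.p6. The CRE is the site of CREB, which responds to glucagon through cAMP.
Ldha: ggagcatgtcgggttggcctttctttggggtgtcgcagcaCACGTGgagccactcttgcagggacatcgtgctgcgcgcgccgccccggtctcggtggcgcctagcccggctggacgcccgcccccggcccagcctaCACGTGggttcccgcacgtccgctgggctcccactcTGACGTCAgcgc
Ppp1r3c: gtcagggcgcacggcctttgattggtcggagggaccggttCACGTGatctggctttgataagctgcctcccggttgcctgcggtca
Galt: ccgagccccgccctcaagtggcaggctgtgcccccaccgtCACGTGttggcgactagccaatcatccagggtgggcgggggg
Tjp3: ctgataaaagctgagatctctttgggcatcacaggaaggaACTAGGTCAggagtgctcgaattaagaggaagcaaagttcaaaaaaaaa

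Promoters were read from RefSeq (build GRCm38.p6) as windows from 250 bases before to 50 after a start, and 101 of the 140 loci had at least 1 window, 142 in all. The E-box CACGTG stood in 12 windows (8.45%, 95% Wilson interval 4.9 to 14.2%), against 10% of 5410 windows of tested symbols and 7.15% of all 32851 windows. The RORE, searched as ANTAGGTCA or ANTGGGTCA, stood in 2 windows (1.41% against 1.28% and 1.45%), the CRE TGACGTCA in 4 (2.82% against 3.07% and 1.79%), the forkhead motif TGTTTAC in 3 (2.11% against 3.01% and 3.65%) and the sterol element TCACNCCAC in 3 (2.11% against 1.5% and 1.24%). The D-box TTATGTAA, bound by clock outputs such as DBP, was in 0 of 142 windows, which allows a share of up to 2.11% (3 windows), against 0.665% and 0.938%. For the heat shock motif GAANNTTC the shares were 3.52%, 5.77% and 7.86%, for the glucocorticoid motif ACANNNTGT 3.52%, 4.31% and 6.85%, and for the antioxidant motif TGACNNNGC 9.15%, 14.6% and 12.4%. Both strands were searched, and E-box and CRE letters can overlap. For all 9 motifs the share of the tested symbols lay inside the Wilson interval of the loci. A match is a description of letters and not a bound site.

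Lipid metabolism gave the widest range of all loci. Chka (mm9 chromosome 19, 3851773 to 3894367, plus strand), which encodes choline kinase alpha, the first enzyme of the route from choline to phosphatidylcholine, gave 52.6 and 76.4 rpbp at ZT0, 20.8 and 54.7 at ZT4, 5.9 and 6.5 at ZT8, 7.7 and 13.5 at ZT12, 29.6 and 8 at ZT16 and 97.7 and 60.5 at ZT20. At ZT20 it averaged 79.1 ± 26.3 rpbp, and at ZT8 6.2 ± 0.424 rpbp (SD, n = 2), an 11.1-fold range with 1 rpbp added. Insig2 (mm9 chromosome 1, 123200930 to 123229157, minus strand) encodes a protein of the endoplasmic reticulum that retains the SREBP transcription factors there and so limits the synthesis of sterols and fatty acids. It gave 40.7 and 60.4 rpbp at ZT0, 39.1 and 34.8 at ZT4, 14.5 and 28.4 at ZT8, 12.1 and 8.1 at ZT12, 22.9 and 7.1 at ZT16 and 65 and 72.5 at ZT20. ZT20 was highest in both replicates and ZT12 and ZT16 of replicate 2 were lowest, a 6.28-fold range. Among 29 tested genes of fatty acid and triglyceride synthesis Insig2 was the sole member (3.45%, against 2.48% of all tested symbols). Another 3 cycled strongly in later windows. None of 18 tested cholesterol synthesis and uptake genes was in the set, where a share of 2.48% would give few or none.

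Lipc, hepatic lipase, gave 16.3 and 16.4 rpbp at ZT0, 15.5 and 17.4 at ZT4, 5.2 and 6.3 at ZT8, 7.9 and 6.3 at ZT12, 10.3 and 5.9 at ZT16 and 20 and 20.2 at ZT20. The 6 libraries of ZT20, ZT0 and ZT4 all lay above the 6 others. Crot, which makes carnitine esters of medium-chain acids in peroxisomes, and Dbi, the acyl-CoA-binding protein, had peaks of 23.8 and 22.3 hr. Pxmp4, a peroxisomal membrane protein, and Lonp2, a protease of the peroxisome matrix, peaked at 21.7 and 1.38 hr, and Lonp2 had one of the highest mean signals of the set, 77.4 rpbp. Etfa, which passes electrons from fatty acid oxidation to the respiratory chain, and Pcca, a subunit of propionyl-CoA carboxylase, had ranges of 2.05-fold and 1.71-fold. None of 34 tested genes of a list of fatty acid oxidation, which did not hold these names, was in the set. The 2.48% of all tested symbols would give few or none there, and 3 of the 34 cycled strongly in mid light. D5Wsu178e (Ept1 in GENCODE), an enzyme of phosphatidylethanolamine synthesis, and Abca3, a lipid transporter, complete the lipid loci.

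A pair of steroid dehydrogenases peaked within 1 hr of each other. Hsd17b2, which inactivates sex steroids, gave 49.6 and 33.8 rpbp at ZT0, 33.4 and 27.3 at ZT4, 23.1 and 22.1 at ZT8, 12.1 and 11.9 at ZT12, 27.8 and 23.7 at ZT16 and 27.9 and 30.8 at ZT20. Hsd3b5, a liver member of the 3-beta-hydroxysteroid dehydrogenase family whose near-identical relatives could share reads, gave 21.2 and 17.1 rpbp at ZT0, 17.7 and 16.5 at ZT4, 7.8 and 10.8 at ZT8, 5.1 and 6 at ZT12, 11.5 and 11 at ZT16 and 14.8 and 22.8 at ZT20. Both were lowest at ZT12, and their fitted peaks were 23.8 and 23.4 hr. Among the loci of carotenoid and retinoid handling, 1300002K09Rik (RefSeq synonym of Stra6l, a receptor for retinol-binding protein) peaked at 22.4 hr with a 3.12-fold range, and Bcdo2 (Bco2), which cleaves carotenoids, at 1.35 hr with 1.62-fold.

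Detoxification and bile genes combined wide ranges with spread-out peaks. Abcb11 (mm9 chromosome 2, 69076339 to 69180673, minus strand), the bile salt export pump of the canalicular membrane, gave 46 and 64.4 rpbp at ZT0, 50.1 and 81.7 at ZT4, 17.7 and 29.8 at ZT8, 26.5 and 32.2 at ZT12, 52.5 and 42.7 at ZT16 and 86.9 and 87.6 at ZT20. Of 17 tested bile acid genes, Abcb11 alone was in the set (5.88%, against 2.48% of all tested symbols). Another 5 cycled strongly in the mid-light and lights-off windows. The R squared of Abcb11, 0.628, was near the limit, and the locus left the set when any of 6 libraries was left out. Gstm1 and Gstm6, neighbors in a cluster of glutathione transferase genes whose similar sequences leave the division of reads between them uncertain, both had wide ranges, 3.71-fold and 4.97-fold. Gstm1 gave 11.1 and 17.7 rpbp at ZT0, 11.6 and 16.8 at ZT4, 3.3 and 3.1 at ZT8, 1.9 and 4.4 at ZT12, 10 and 1.7 at ZT16 and 14 and 13.9 at ZT20. Gstm6 gave 4 and 8.4 rpbp at ZT0, 2.7 and 4.6 at ZT4, 0.5 and 0.8 at ZT8, 0.5 and 0.4 at ZT12, 2.2 and 0.7 at ZT16 and 8.7 and 3.5 at ZT20. At ZT16 replicate 1 stood above replicate 2 for both genes. Ddah1 (mm9 chromosome 3, 145421691 to 145554637, plus strand), which degrades asymmetric dimethylarginine, an inhibitor of nitric oxide synthesis, had the highest R squared of all loci, 0.903. It gave 9.1 and 10.3 rpbp at ZT0, 9.3 and 8.7 at ZT4, 2.4 and 4.8 at ZT8, 1.5 and 0.5 at ZT12, 1.5 and 2.8 at ZT16 and 5.5 and 3.4 at ZT20.

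Ces5 (Ces2e), a carboxylesterase, and Adh4, an alcohol dehydrogenase, came later in the window. Ces5 gave 4.9 and 7.7 rpbp at ZT0, 7.2 and 3.2 at ZT4, 4.7 and 6.6 at ZT8, 0.6 and 0.1 at ZT12, 0.6 and 0.4 at ZT16 and 3.9 and 3.2 at ZT20, so that the 4 libraries of ZT12 and ZT16 were at or below 0.6 rpbp. Adh4 gave 43.2 and 46.2 rpbp at ZT0, 31.2 and 33.9 at ZT4, 24.4 and 32.9 at ZT8, 16.8 and 12.5 at ZT12, 21.5 and 17.7 at ZT16 and 23.1 and 19.2 at ZT20. Their fitted peaks were 2.61 and 1.89 hr. Glo1, which removes methylglyoxal, peaked earlier, at 22 hr. In the set were 2 of 69 tested cytochrome P450 and phase I genes (2.9%) and 2 of 36 phase II genes (5.56%), beside 2.48% of all tested symbols.

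Among the cofactor, nucleotide and sugar enzymes, Ecgf1 (Tymp), thymidine phosphorylase, had a mean signal of 33.1 rpbp and a 2.85-fold range, and Mocos, which activates the molybdenum cofactor of xanthine dehydrogenase and aldehyde oxidase, a 1.78-fold range. B3gat3, Fuca1, Fahd2a and Thnsl2 had peaks of 22.2, 0.86, 2.02 and 1.98 hr.

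Transporters of metals and small solutes were led by Slc30a10, a manganese exporter. Slc30a10 (mm9 chromosome 1, 187278727 to 187292640, plus strand) gave 15.9 and 16 rpbp at ZT0, 11.2 and 12 at ZT4, 4.2 and 5 at ZT8, 2 and 3.1 at ZT12, 14.4 and 5.8 at ZT16 and 16.4 and 12.7 at ZT20, with a 4.77-fold range of means. The replicates stood apart at ZT16 and closer together at the other time points. Copper handling was represented at neighboring steps: Atox1, the chaperone that carries copper to the pump, and Atp7b, the copper pump of hepatocytes, had peaks of 2.27 and 2.15 hr and ranges of 3.07-fold and 1.53-fold. Slc11a2, an iron transporter, and Frrs1, a ferric reductase, peaked at opposite ends of the window, at 21.5 and 2.26 hr. Slc6a6, the taurine transporter, Slc22a15, 3110004L20Rik (Slc22a23) and Pqlc1 made up the rest, with ranges of 1.62-fold, 2.31-fold, 1.67-fold and 2.33-fold. Of 128 tested solute carriers and ABC transporters 6 were in the set (4.69%, against 2.48% of all tested symbols).

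Secreted proteins had the highest median signal of the roles, 28.5 rpbp. Itih1, a heavy chain of the inter-alpha-trypsin inhibitor, gave 84.9 and 138.7 rpbp at ZT0, 75.3 and 109 at ZT4, 28.4 and 27.4 at ZT8, 53.8 and 62.9 at ZT12, 96.6 and 50.8 at ZT16 and 93.3 and 97.3 at ZT20. It reached the highest single value of the set, 138.7 rpbp, at ZT0 of replicate 2, was lowest at ZT8 in both replicates, and left the set when any of 5 libraries was left out. Mug2 and MUG3, murinoglobulins that trap proteinases, lie near each other on chromosome 6 and may share reads. Mug2 gave 31.2 and 83 rpbp at ZT0, 44.1 and 81.9 at ZT4, 22.1 and 21 at ZT8, 16.9 and 8.2 at ZT12, 15.1 and 5.6 at ZT16 and 57.6 and 46.3 at ZT20, and MUG3 had a 3.31-fold range. Mug2 left the set without ZT0 replicate 2, its highest library. Afm, the vitamin E-binding protein afamin, had a mean of 55.3 rpbp and a peak of 1.31 hr.

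Lgals9, galectin 9, gave 32.8 and 34 rpbp at ZT0, 28.1 and 33.5 at ZT4, 12.3 and 12.6 at ZT8, 17 and 15.9 at ZT12, 26.3 and 17.5 at ZT16 and 39.1 and 35.2 at ZT20. Leap2, a secreted peptide that opposes ghrelin at its receptor, peaked at 23.5 hr, Cpn1, a subunit of carboxypeptidase N, at 22.9 hr, and Creg1, a secreted glycoprotein, at 0.92 hr. Col5a3, a collagen chain, and Cd1d1, which presents lipid antigens, peaked at 1.55 and 2.32 hr, and AK043043, inside the chemokine gene Ccl25, at 0.92 hr. Of 85 tested plasma protein genes of a list, Itih1 alone was in the set (1.18%, against 2.48% of all tested symbols). That list did not hold Mug2, MUG3, Afm, Cpn1 or Leap2.

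Of the roles assigned by hand, that of cell junctions, cytoskeleton and small GTPase signalling held the most loci, although most of them were low. How many of all tested symbols have this role was not counted. Its median ratio was 2.17 and its median signal 6.69 rpbp. Arhgap24, a GTPase-activating protein for Rac and Cdc42, gave 7.8 and 6.9 rpbp at ZT0, 4.6 and 5.7 at ZT4, 3.5 and 4 at ZT8, 2.1 and 1.6 at ZT12, 2 and 3.7 at ZT16 and 7.9 and 6.2 at ZT20, and Stef (Tiam2), an activator of Rac, gave 7.5 and 8.6 rpbp at ZT0, 8.8 and 9.3 at ZT4, 7.4 and 6.7 at ZT8, 4.7 and 4.3 at ZT12, 5.2 and 3.6 at ZT16 and 7.6 and 7.2 at ZT20. Both belonged to the 8 loci of highest R squared, at 0.851 and 0.872. Rhou, an atypical small GTPase, peaked at 1.61 hr, Net1, an exchange factor for small GTPases, at 0.14 hr and Stard13, a GTPase-activating protein, at 22.1 hr. A list of 74 tested cytoskeleton and small GTPase genes held 2 members (2.7%), close to the 2.48% of all tested symbols.

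Tight junction proteins formed a small group within this role. Cldn1 (claudin 1), Tjp3 (ZO-3) and Cgn (cingulin) peaked at 22.7, 21.7 and 21.8 hr and had ranges of 2.63-fold, 3.06-fold and 2.95-fold. Among proteins of the actin cytoskeleton and the cell surface, Plxna2, a semaphorin receptor, had a 2.85-fold range, Shank2, a scaffold protein, 2.85-fold, Ddef2 (Asap2) 2.75-fold, Syne1, which ties nuclei to actin, 2.33-fold, Shag1 (Asap1) 1.77-fold, Ptprk, a receptor phosphatase, 1.72-fold and Shroom2 1.66-fold. The remaining members were mKIAA0750 (Mical2), mKIAA1334 (Rai14), Palld, Svil, Fat1, Sntb1 and Sipa1l1, with ratios from 1.57 to 2.79.

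Vesicle traffic and signalling each held steep loci. Rab36, a small GTPase of late endosomes and the Golgi, gave 15.9 and 17.3 rpbp at ZT0, 14.1 and 23.4 at ZT4, 6.8 and 3.7 at ZT8, 4.6 and 2.7 at ZT12, 9.9 and 2.5 at ZT16 and 14.8 and 10.1 at ZT20. Its 6 libraries of ZT20, ZT0 and ZT4 lay above the 6 others. St5 and Dennd1a, which carry a DENN domain that activates Rab proteins, had ranges of 2.8-fold and 1.48-fold. This role also held mKIAA0899 (Ap2a2, an adaptor of clathrin coats), Mal2, Ergic1, mKIAA0297 (Tecpr2) and Tor3a, and 2 of 120 tested vesicle traffic genes of a list (1.67%) were in the set.

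Lrfn3, a cell adhesion molecule, gave 8.2 and 5.4 rpbp at ZT0, 2.8 and 5.3 at ZT4, 0.5 and 0.5 at ZT8, 2 and 2.1 at ZT12, 5.9 and 2 at ZT16 and 8.3 and 4.9 at ZT20. The lowest values, 0.5 rpbp, were those of both libraries of ZT8. Tmie gave 17.1 and 17.3 rpbp at ZT0, 9.6 and 5.8 at ZT4, 4.2 and 5.6 at ZT8, 3.8 and 3.4 at ZT12, 4.4 and 3.4 at ZT16 and 14.7 and 7.8 at ZT20, and its ZT0 libraries differed by 0.2 rpbp. Receptors and their regulators included Avpr1a, a vasopressin receptor that mobilizes glycogen in hepatocytes (3.71-fold), Grk5, a kinase that silences G-protein-coupled receptors (2.92-fold) and Mrap, an accessory protein of the ACTH receptor (1.99-fold). Dapk1, a calmodulin-regulated kinase, had the highest mean of this role, 18.5 rpbp, and a 2.45-fold range. Efcbp1 (Necab1), Wwox, Omg and AK169510 (inside Ppp2r3a) also belonged to it.

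Protein breakdown was represented by Clpx, the ATPase that feeds proteins to the mitochondrial ClpP protease, whose 6.8-fold range was among the widest. Clpx (mm9 chromosome 9, 65142102 to 65178465, plus strand) gave 35.1 and 54.4 rpbp at ZT0, 13.4 and 32 at ZT4, 6.8 and 9.8 at ZT8, 12.1 and 15.9 at ZT12, 28.3 and 22.1 at ZT16 and 66.2 and 58.3 at ZT20. The mean of ZT20, 62.2 ± 5.59 rpbp, was the highest, and that of ZT8, 8.3 ± 2.12 rpbp, the lowest (SD, n = 2). Rnf125, a ubiquitin ligase, gave 19.3 and 28.4 rpbp at ZT0, 9.7 and 32.9 at ZT4, 8.4 and 12.7 at ZT8, 9.2 and 3.2 at ZT12, 7 and 7.3 at ZT16 and 29.2 and 27.3 at ZT20. Its replicates differed widely at ZT4, and Clpx left the set without ZT16 replicate 2. Hectd2, also a ubiquitin ligase, had a 3.55-fold range. Proteasome subunits Psmd11 and Psmc2, the ligase Znf230 (Rnf141), the ubiquitin receptor and repair factor Rad23b and mKIAA0797 (the SUMO protease Senp6) had smaller ranges, from 1.48-fold to 1.97-fold. Of 153 tested ubiquitin and proteasome genes 4 were in the set (2.61%), close to the share of all tested symbols.

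Of the 7 translation and RNA loci, 4 peaked between 1 and 3 hr, 1 between 23 and 1 hr and 2 earlier. Cpeb4, which binds mRNA tails and regulates their length, gave 31.8 and 36.7 rpbp at ZT0, 37.3 and 33.9 at ZT4, 21.9 and 26.4 at ZT8, 15.7 and 19.7 at ZT12, 22.7 and 25 at ZT16 and 27 and 30.7 at ZT20. Tars, threonyl-tRNA synthetase, peaked at 21.5 hr with a 2.05-fold range, and Nat10, an RNA acetyltransferase, at 22.9 hr with 2.37-fold. The others were Pdcd4, an inhibitor of translation initiation, Rars2, the mitochondrial arginyl-tRNA synthetase, Tdrd7 and AK051928 (inside Mtif2). Tars and Rars2 were the 2 of 42 tested genes of translation factors and tRNA synthetases in the set (4.76%, against 2.48% of all tested symbols). Under 23 alternatives, Tars stayed in the set in 22, Nat10 in 15 and Rars2 in 12.

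The role of transcription and coregulation held 10 loci. Of 202 tested genes of a transcription factor and nuclear receptor list, which does not hold all of them, 1 was in the set (0.495%), and of 86 chromatin and coregulator genes 1 (1.16%), against 2.48% of all tested symbols. Ches1 (Foxn3), a forkhead repressor, gave 31.7 and 22.7 rpbp at ZT0, 31.1 and 28.4 at ZT4, 17.5 and 16 at ZT8, 20.3 and 18.1 at ZT12, 19.4 and 16.5 at ZT16 and 19.9 and 23.8 at ZT20. Nrip1, a corepressor of nuclear receptors, had the narrowest range of all loci, 1.38-fold. Both lie close to a limit of the rule, and Ches1 left the set under 8 of the alternatives and Nrip1 under 7. Pnrc1, a nuclear receptor coactivator, had a 2.5-fold range and Nkx2-6, a homeobox gene of low signal, 4.61-fold. Btbd14a (Nacc2), Zfhx4, Cfdp1, BC038328 (Zfp708), AK170928 (Zfp295) and DIF-3 (Ggnbp2) were the remaining members.

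Several lists had no member in the window. No symbol was chosen among 41 tested heat shock and chaperone genes, 23 of the unfolded protein response or 78 of splicing and RNA binding. The same held for 41 of amino acid metabolism and the urea cycle, 47 of growth factor signalling and 17 cytosolic ribosomal protein genes. It also held for 5 of ribosome assembly, 2 long non-coding RNA genes and 78 mitochondrial genes of a list without Clpx or Rars2. At the 2.48% of all tested symbols, lists of these sizes would hold few members or none, and the shares were not tested. Further lists held Rad23b among 38 genes of the cell cycle and DNA repair (2.63%) and Ppp1r3c and Ptprk among 115 kinases and phosphatases (1.74%). The 17 tested clock genes other than the 4 left out gave none either, and 8 of them cycled strongly in the other windows. The 3 left-out genes that met the limits had their highest time-point mean at ZT20 (Arntl, 9.75 rpbp, and Clock, 15.8 rpbp) or at ZT0 (Npas2, 8.65 rpbp).

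Transcripts without an established name contributed some of the steepest loci. AK144477 (mm9 chromosome 4, 103055105 to 103164793, plus strand, in the processed transcript Gm12718) gave 19.5 and 26.2 rpbp at ZT0, 24 and 32.2 at ZT4, 18.1 and 20.8 at ZT8, 10.1 and 2.3 at ZT12, 2.5 and 2 at ZT16 and 15.8 and 23 at ZT20. Of all loci only Chka had a wider range than its 8.95-fold, with both libraries of ZT16 and replicate 2 of ZT12 at or below 2.5 rpbp, and the locus left the set without ZT20 replicate 2. C730027P07Rik (Fam198a) gave 9.1 and 8.3 rpbp at ZT0, 4.6 and 6.2 at ZT4, 7.5 and 5.5 at ZT8, 1.3 and 0.5 at ZT12, 5.1 and 1.7 at ZT16 and 10.8 and 9.9 at ZT20, and left the set under 10 of 23 alternatives. AK017148 overlaps no gene of GENCODE M1 and had a 3.95-fold range, and A230050P20Rik a 3.41-fold range around a mean of 43.7 rpbp. The others were AK015421, AK030979, AK047938, AK041762, AK131839, AK138667, AK015099, NR_003519 (the pseudogene Pisd-ps2, which could share reads with its parent gene), BC004004, 4930506M07Rik, 4930402H24Rik, C230096C10Rik and mKIAA1456, with ranges from 1.45-fold to 3.68-fold. Of the 1531 tested clone-named symbols 41 were chosen (2.68%), close to all tested symbols.

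For 30 of the 140 loci, another tested symbol overlaps the locus and did not meet the limits. For 4 of them (Dbi, Insig2, Tor3a and Creg1) this is Capn8, whose row spans 94830985 to 184562483 of chromosome 1 in the table and overlaps much of the chromosome. In others, a longer symbol of the same gene missed a limit. Mical2 (peak 20.985 hr) fell just outside the window that mKIAA0750, a shorter symbol of the same gene, met at 21.2 hr, and Zfp295 had an R squared of 0.928 but a peak of 20.6 hr, against 21.2 hr for AK170928. Mtap7, which holds both AK138667 and AK015099, failed the ratio (1.64), and Rai14 failed R squared (0.451) where mKIAA1334 had 0.723. Senp6, Ggnbp2, Zfp708 and Mtif2 had an R squared of 0.376, 0.288, 0.25 and 0.445. For these loci the choice therefore depends on which exons the symbol covers. Since strand was not kept, the signal of Omg, which lies wholly within the span of Nf1, cannot be told apart from that gene's where exons overlap, whereas Apba3 covers 0.158% of Tjp3 and BC040803 0.494% of Pdcd4.

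The loci near a limit show how sharp the choice is. Just inside the limit on the signal were Thnsl2 (6.1 rpbp) and Frrs1 (6.2 rpbp), and just outside Fath (6 rpbp) and Celsr1 (5.9 rpbp). On the ratio, Nrip1 (1.773) and Dennd1a (1.786) passed while Igsf5 (1.742) and Plekha5 (1.723) did not. R squared was 0.601 for Cd1d1 and 0.602 for Ches1, and 0.599 for Sh3pxd2a and 0.597 for Kifc3. At the start of the window Ergic1 (21.073 hr) and AK170928 (21.15 hr) were inside and Pde9a (20.987 hr) and Mical2 (20.985 hr) outside. At its end mKIAA0797 (2.999 hr) and AK051928 (2.903 hr) were inside and Sgk2 (3.053 hr) and Fbp1 (3.077 hr), the gluconeogenic fructose bisphosphatase, outside.

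Several members are neighbors. Within 100 kb of each other lay 7 pairs of loci, none with a tested symbol between them. Of the 6 described here, mKIAA1334 (Rai14) and AK047938 on chromosome 15 are 0.211 kb apart on opposite strands. Hectd2 and Ppp1r3c on chromosome 19 are 26.1 kb apart and converge, with peaks of 23.2 and 0.015 hr. Gstm6 and Gstm1 (68.5 kb), Col5a3 and A230050P20Rik (53.7 kb), 1300002K09Rik and Tdrd7 (78.3 kb) and the 2 clones in Mtap7 (26.6 kb) were the others. Whether the signal of a locus reaches into its neighbor was not tested.

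In features that the rule did not use, the loci resembled the tested symbols in GC content and had longer spans. Overlapping symbols were merged into loci, whereas the tested symbols were counted without merging, so unlike units are compared. Whether this alone makes the spans longer was not tested. Their median exon GC content was 49.9% (quartiles 46.3 and 52.5%), against 49.6% (44.9 and 54.1%) over all tested symbols, and 66 of 137 with a value lay below the latter median. Their median span was 32.6 kb against 22.6 kb, and 20.7% were longer than 100 kb against 11.4% of all tested symbols, a share that was 23.4% for the mid-light and 12.2% for the lights-off loci. Of the 140 loci, 95% matched a protein-coding gene of GENCODE M1, against 93.5%. They were spread over 20 chromosomes with at most 12 on one, chromosome 4. These are descriptions without a test.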

How the data were processed

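Nascent-Seq was measured in 12 liver libraries, 2 replicates at each of 6 zeitgeber times, which the labels name by time and replicate. Reads were aligned by the authors to mm9 with TopHat after CASAVA 1.7 (named in the submitters' processing notes), and the deposited values are a signal, reads per base pair of merged exons, scaled by the authors to 40000000 uniquely mapped reads and given to 1 decimal without strand. These are not counts, so no count model was used, and the deposited table gives no reads per library, so no counting interval is given. The deposited table also holds the authors' own Fourier share, phase and p-values, which were not used.

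Each of the 21490 symbols was fitted by least squares with a 24-hr cosine and sine over the 12 linear values. R squared, the ratio of the highest to the lowest value and the fitted peak chose the loci, and symbols overlapping by at least 1 base were merged. The members and gene lists were chosen with earlier results of these data known, the roles were assigned by hand, and the values of members outside the naming rule were picked after they were seen. The naming rule took the 12 loci of widest ratio, the 8 of highest R squared, the 6 of highest mean, up to 3 loci from each gene list, the 59 loci chosen in each series alone and those beside each limit. All other members are named once, except for loci that are not reported here.

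Because the pooled values chose the loci, tests were made only between the series, by an exact one-sided permutation test over 720 orders with Benjamini-Hochberg adjustment over all 6284 tested symbols, called at an unadjusted p under 0.05. The replicates are independent samples taken in 2 series. A p-value measures how unusual the order of the time-point values is within the tested series, and it does not measure the spread between replicates. Gene names, strand and exon GC came from GENCODE M1 and the genome of the same build, with 102 loci matched by name and 35 by position, and promoters from RefSeq on GRCm38.p6. The scripts were tested on simulated data. Python 3.11.15, numpy 2.4.6, pandas 2.3.3, scipy 1.17.1 and matplotlib 3.10.9 were used. Alternatives changed the limits on signal, R squared, ratio and window, the scale, the library scaling, the GC trend, blocks for series and lanes, and the libraries included.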

Additional observations from a re-analysis of the deposited data

How the results depend on the processing

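The count of 140 loci moved to 73 with a signal limit of 12 rpbp, to 265 without a limit, to 68 with R squared over 0.7, to 219 without ZT8 replicate 2, and to 252 without ZT8 replicate 2 and ZT20 replicate 2, an alternative chosen after the data were seen. Leaving out each library in turn gave 119 (without ZT0 replicate 2) to 219. Rescaled libraries gave 120 loci, of which 103 were among the 140, and removal of the GC trend 144, of which 98 were. Lanes as a block gave 206, a count that could only rise. The median peak lay between 23.2 and 0.461 hr under the changes of signal limit, scale, ratio, library scaling, GC trend, blocks and libraries. It was computed for these changes only. They all chose loci by the same window of the fitted peak, so the median could not leave that window and is no measure of stability. Of 81 named loci, 31 stayed in the set under every alternative that gave them a value, of 23 tried. Another 33 left it under 1 to 3 and 17 under more. The blocks and the looser signal limits could not remove a locus.

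Same-numbered libraries of different time points deviated together with correlations from -0.117 to 0.32 (median 0.0734, 5 of 15 pairs over 0.1). These values do not settle whether the numbers pair the libraries, and the main fit used no pairing. The replicate block gave 174 loci, the 140 among them.

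In loci chosen in replicate 1, the share with p under 0.05 by the exact permutation test in replicate 2 was 42.9% with a signal limit of 12 rpbp, 26.9% with rescaled libraries, 9.13% for a rhythm in any phase, and 14.1 to 26% without 1 time point. In loci chosen in replicate 2 it was 42.2% in replicate 1 with rescaled libraries, 41.5% without the GC trend, 9.44% in any phase, and 7.97 to 25.2% without 1 time point. Each was above the share of all tested symbols under the same alternative, though the 7.97% stood beside 7.65%. From 50 to 250 bases before the start only, 4.23% of windows held an E-box, 0.704% a CRE and 4.23% the antioxidant motif. The causes of these moves were not tested. The reads behind a value were not used here, so no counting error could be given.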
